A study of Rattus norvegicus with 17 samples.

Results

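S100a8 (ENSRNOG00000011557) and S100a9 (ENSRNOG00000011483), the genes of the 2 subunits of calprotectin, were followed rat by rat through the 5 groups of a study of spinal cord injury (SCI) and brainstem stimulation. They are 2 of the 32494 Ensembl genes in the count table, and both passed the filter on low counts. The pair was selected on its measured rise with stimulation in injured rats, so the fold changes of every contrast with an injured group are given as a description and carry no test. The levels in intact rats compared with each other, the proportion of one subunit to the other and the way the pair varied among intact rats are not what selected it, and these were tested.

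The S100A8 and S100A9 proteins bind calcium and join into calprotectin, which makes up a large part of the soluble protein in the cytoplasm of neutrophils and is also made by monocytes. Released from these cells, calprotectin withholds zinc and manganese from microbes and acts on receptors of innate immunity such as TLR4. In the uninjured spinal cord neutrophils are mainly found in blood vessels, and after a contusion they enter the tissue early, ahead of most monocytes.

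Spinal cord RNA was sequenced from 17 female, young adult Sprague-Dawley rats, 1 library for each rat, in which the C4 to C6, T7 to T9 and L1 to L3 blocks with their pia-arachnoid were combined. Group A had neither injury nor stimulation (4 rats, numbers 70, 82, 83 and 84), group B a moderate contusion at T8 without stimulation (3 rats, 91, 94 and 95), group C the contusion and stimulation (3 rats, 89, 90 and 93), group D the contusion and stimulation after 1 mg/kg pimozide (2 rats, 75 and 76), and group E stimulation without contusion (5 rats, 69, 85, 86, 87 and 88). Stimulation of the nucleus raphé magnus (NRM), a serotonergic nucleus of the lower brainstem, ran for 2 h on the third day after injury or sham injury, and the cords were taken at once. All rats received an electrode, ketamine and xylazine, isoflurane, buprenorphine and gentamycin; laminectomy is stated for only some of the uninjured rats. The treatment label of group E reads unstimulated, whereas its letter and the design of the series make it the stimulated, uninjured group, and it is described as such here. The libraries held 9852873 to 14137717 counts on genes, and in the injured rats the lesion is mixed with cord from distant segments. Whether blood was flushed from the vessels before dissection is not given in the sources used here.

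In the RefSeq annotation of assembly GRCr8, S100a8 and S100a9 lie side by side on chromosome 2 with 0 genes between them, flanked by S100a7a and Pglyrp4. The 250 bases before the annotated start of S100a9 are shown in the direction of transcription, together with those of Np4, an alpha-defensin of neutrophil granules and the gene whose level followed the pair most closely. No such window was available for S100a8, which was therefore not searched. The S100a9 window is chr2:178490623-178490872 on the minus strand and the Np4 window chr16:77199643-77199892 on the minus strand, both from RefSeq and GRCr8. Capitals mark the motif letters found.
S100a9: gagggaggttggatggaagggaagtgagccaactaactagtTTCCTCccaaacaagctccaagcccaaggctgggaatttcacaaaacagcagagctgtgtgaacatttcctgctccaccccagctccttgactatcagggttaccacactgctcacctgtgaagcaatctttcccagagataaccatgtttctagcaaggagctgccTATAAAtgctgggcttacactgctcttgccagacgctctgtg
Np4: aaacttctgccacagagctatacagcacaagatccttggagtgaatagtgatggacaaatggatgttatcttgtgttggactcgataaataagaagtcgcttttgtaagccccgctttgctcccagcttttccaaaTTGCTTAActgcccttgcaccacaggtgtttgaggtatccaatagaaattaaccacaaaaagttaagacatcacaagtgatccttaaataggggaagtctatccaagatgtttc
Both strands were searched for the TATA box (TATAAA) and for the letters bound by C/EBP factors (TTGCNNAA), PU.1 (GAGGAA), STAT factors (TTCNNNGAA) and AP-1 (TGANTCA). The S100a9 window held TATAAA at positions -42 to -37 from the start, and GAGGAA on the opposite strand at -209 to -204. The Np4 window held TTGCNNAA at -114 to -107. No capitalized stretch overlaps another, and the shares of 33469 promoter windows of the same length with these letters were 12.9% for TATAAA, 23.3% for GAGGAA, 9.22% for TTGCNNAA, 7.67% for TTCNNNGAA and 6.34% for TGANTCA, so such matches are common.

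Both subunits were highest in injured, stimulated rats, and among uninjured rats they varied 19.7-fold (S100a8) and 19.3-fold (S100a9). Levels are in CPM, counts scaled to a common library size with TMM factors. They are not divided by transcript length, so S100a8 and S100a9 are each compared between rats and not with each other as numbers of molecules. Because whole tissue was sequenced, a larger number of cells that contain these transcripts and more RNA per cell cannot be told apart.

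In group A, S100a8 measured 1.35, 2.04, 5.03 and 19.1 CPM in rats 70, 82, 83 and 84. In group E it measured 1.11, 9.37, 2.10, 21.8 and 9.63 CPM in rats 69, 85, 86, 87 and 88. Rat 84 and rat 87 thus stood well above the other rats of their groups, and the 2 uninjured groups overlapped over nearly their whole range. Injured rats without stimulation were close together, at 6.15, 5.58 and 5.30 CPM in rats 91, 94 and 95. With stimulation, rats 89, 90 and 93 reached 30.3, 35.0 and 22.5 CPM. With pimozide before stimulation, rats 75 and 76 had 7.06 and 5.36 CPM; rat 76 lay among the injured rats that were not stimulated and rat 75 above them. All 3 rats of group C lay above the other 14.

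S100a9 followed the same order of groups. It measured 1.77, 5.80, 9.78 and 29.7 CPM in rats 70, 82, 83 and 84 of group A and 2.72, 15.7, 3.64, 34.2 and 14.2 CPM in rats 69, 85, 86, 87 and 88 of group E. Group B had 10.6, 6.73 and 7.32 CPM in rats 91, 94 and 95, and group D 13 and 9.90 CPM in rats 75 and 76. In these groups rats 84 and 87, both uninjured, were again the highest. Group C had 40.1, 52.4 and 32.6 CPM in rats 89, 90 and 93, so that the lowest of its rats was below rat 87 of group E and above every other rat.

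**Figure D1:**
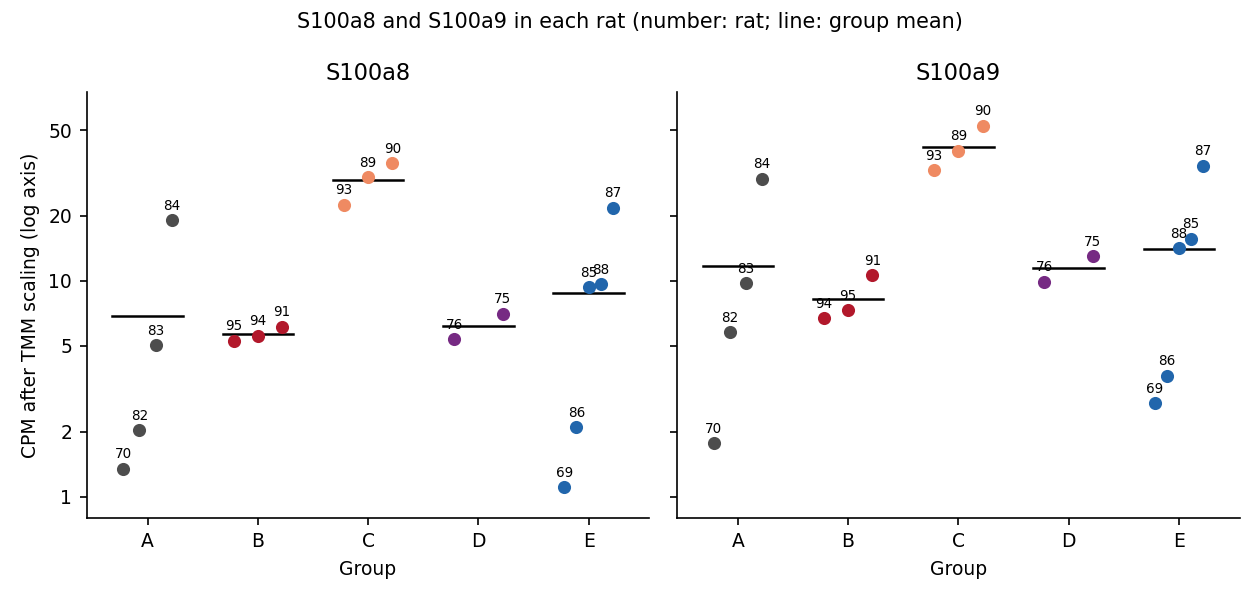
S100a8 (left) and S100a9 (right) in each rat, in CPM after TMM scaling on a log axis, by group, with A sham, B SCI, C SCI and stimulation, D the same with pimozide, and E stimulation alone. Points are rats with their numbers, and lines are group means on the linear scale. Groups B, C and D are compact, whereas the 4 rats of group A and the 5 of group E spread from 1.11 to 21.8 CPM of S100a8.

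The mean of S100a8 was 5.67 ± 0.433 CPM (SD, n = 3) in group B, 6.21 ± 1.2 (n = 2) in group D, 6.89 ± 8.32 (n = 4) in group A, 8.80 ± 8.27 (n = 5) in group E and 29.3 ± 6.32 (n = 3) in group C. The mean of S100a9 took the same order, with 8.20 ± 2.06 CPM (SD, n = 3) in group B, 11.4 ± 2.17 (n = 2) in group D, 11.8 ± 12.4 (n = 4) in group A, 14.1 ± 12.7 (n = 5) in group E and 41.7 ± 9.97 (n = 3) in group C. Neighbours in this order overlapped for both genes, except groups E and C for S100a8. The order of groups B, D, A and E is therefore within the spread of the rats.

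The uninjured rats did not form a low baseline. For S100a8, 5 of the 9 uninjured rats lay below all 5 rats of groups B and D, 4 lay above all of them and 0 lay between. For S100a9 these numbers were 4, 4 and 1. The coefficient of variation of S100a8 was 121% in group A and 94% in group E, against 7.63% in group B and 21.6% in group C, and that of S100a9 was 105% and 90.1% against 25.1% and 23.9%. Counting error is a small part of this spread, since the counts of group A varied 108 (S100a8) and 136 (S100a9) times as much as Poisson counting would, measured as a chi-square over its degrees of freedom; those of group E varied 94.4 and 138 times as much.

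Stimulation of intact rats, contrast ±st(0), was the one comparison of levels without an injured group, and the one tested. Groups A and E did not enter ±st(SCI), but the study also set each of them against group C, so independence from the selection is not complete. S100a8 had a log2(FC) of 0.35 (SE 0.69, unadjusted p = 0.62, adjusted p = 0.93 in edgeR's quasi-likelihood fit, by Benjamini-Hochberg over 15460 genes). S100a9 had a log2(FC) of 0.25 (SE 0.64, unadjusted p = 0.70, adjusted p = 0.95 in the same edgeR fit). Neither difference exceeded the spread between rats, and the sign depended on single rats. Without rat 87 the log2(FC) was -0.31 for S100a8 and -0.38 for S100a9, without rat 84 it was 1.63 and 1.26, and without rat 70 it was 0.01 and -0.10. Over all genes, edgeR's quasi-likelihood test called 0 in this contrast (0%), with 1297 genes at an unadjusted p under 0.05, edgeR's exact test called 24 and DESeq2 16. Without rat 82 of group A, the quasi-likelihood test called 49.

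Stimulation after injury, contrast ±st(SCI), is one from which the pair was selected. The log2(FC) was 2.36 (SE 0.83) for S100a8 and 2.34 (SE 0.79) for S100a9, or 5.15-fold and 5.07-fold higher in group C than in group B. The groups did not overlap for either gene, as was the case in this direction for 3.20% of all genes tested. In the model of all rats, in which the uninjured rats contribute to the spread, 0 of all genes were called (0%), with 476 at an unadjusted p under 0.05, 35 called by edgeR's exact test and 0 by DESeq2. Leaving out any 1 of the 6 rats kept both genes higher in group C.

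Pimozide before stimulation, contrast ±pim(st/SCI), shares group C with the previous contrast, and the values of group C enter both. The log2(FC) was -2.23 (SE 0.95) for S100a8 and -1.86 (SE 0.87) for S100a9. Both rats of group D were below the 3 rats of group C for both genes, as was the case for 9.23% of all genes. Over all genes, 0.0259% (4 genes) were called in this contrast by edgeR's quasi-likelihood test, against 73 genes by edgeR's exact test and 32 by DESeq2. With a rat of group C left out, the quasi-likelihood count was 1 without rat 89, 3 without rat 90 and 1 without rat 93. Both rats of group D carry numbers in the run from 69 to 76, shared with them by rats 70 (group A) and 69 (group E) alone, the lowest or second lowest of all rats in both genes. With a term for the 2 runs of rat numbers in the model the log2(FC) turned to 0.74 for S100a8 and 0.94 for S100a9. No source used here says what the runs stand for; the methods state of both group D rats and of a group E rat, whose number is not given, that they were sampled in the same period as the other animals but were left out of an earlier assay. The run and pimozide cannot be told apart within injured rats, since all injured rats without pimozide belong to the run from 82 to 95.

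Injury alone, contrast ±SCI(0), gave a log2(FC) of -0.27 (SE 0.82) for S100a8 and -0.51 (SE 0.76) for S100a9. The 3 rats of group B lay within the range of the 4 rats of group A for both genes. The direction rested on rat 84, without which the values were 1.01 and 0.49. Over all genes, 5.30% were called. Injury with stimulation and pimozide against no intervention (D/A) gave -0.13 (SE 0.90) and -0.03 (SE 0.83), and without rat 84 gave 1.16 and 0.98. With the term for the runs of rat numbers, D/A was 2.47 and 2.45.

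Injury with stimulation against untreated rats, contrast ±st/SCI(0), gave a log2(FC) of 2.10 (SE 0.74) for S100a8 and 1.83 (SE 0.69) for S100a9, and without rat 84 of 3.38 and 2.84. Injury in stimulated rats, contrast ±SCI(st), gave 1.75 (SE 0.68) and 1.58 (SE 0.64), and without rat 87 gave 2.4 and 2.21. Groups C and A did not overlap for either gene (16.4% of all genes in this direction), and groups C and E did not overlap for S100a8 (15.2%) but did for S100a9. Over all genes, edgeR's quasi-likelihood test called 7.13% of all genes in ±st/SCI(0) and 8.31% in ±SCI(st). These shares leaned on rat 89 of group C, without which the counts fell from 1103 to 664 genes and from 1285 to 812 genes.

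**Figure D2:**
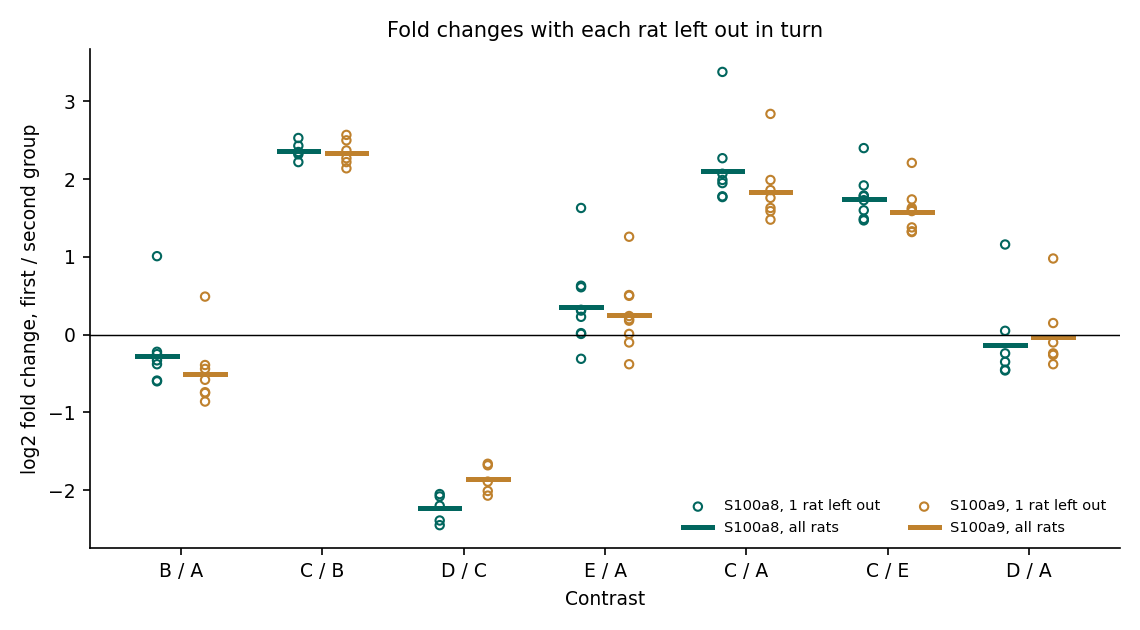
The log2(FC) of S100a8 and S100a9 in 7 contrasts, given as first over second group, with all rats (bars) and with each rat of the contrast left out in turn (open circles). Values of C/B stay above 2 and those of D/C below -1.6, whereas B/A, E/A and D/A cross 0 when rat 84 or another single rat is left out.

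The subunits kept nearly one proportion to each other while their level changed. S100a8 made up 39.3% of the pair's counts over all rats. Its share was lowest in rat 82, with 26 of 100 counts (26.0%, 95% Wilson interval 18.4 to 35.4%), and highest in rat 94, with 58 of 128 counts (45.3%). In group C it was 43.1%, 40.0% and 40.8% in rats 89, 90 and 93. In group D it was 35.2% and 35.1%, and the intervals of these rats overlapped those of group C. Over the 17 rats the variation of the share was 1.51 times that of binomial counting (chi-square over its degrees of freedom), and within group A 2.44 times. The share is thus close to the limit that counting sets, unlike the levels. Intervals cover counting error only.

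**Figure D3:**
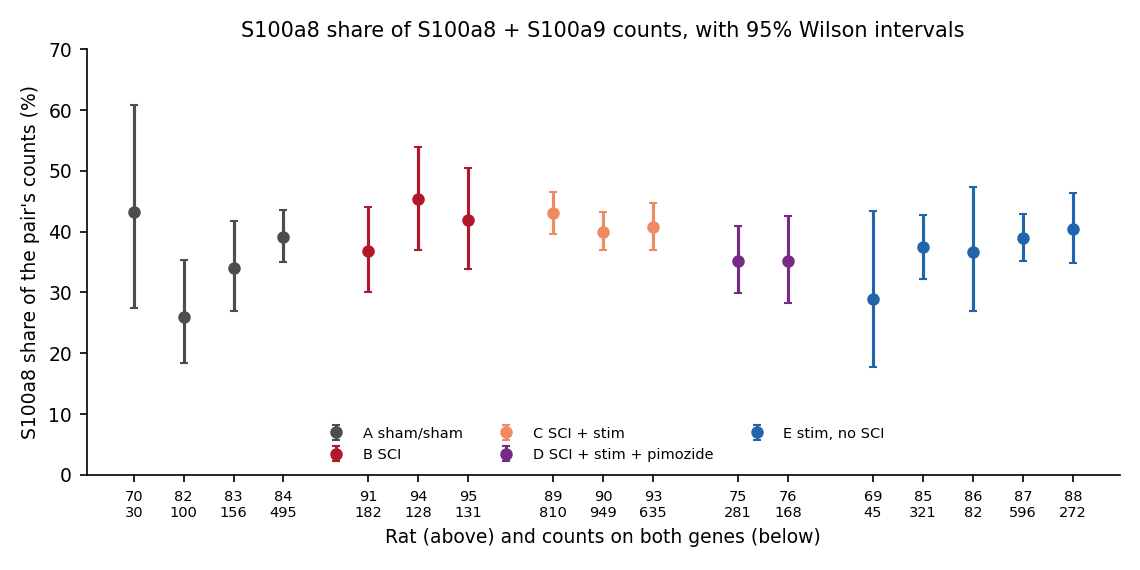
S100a8 as a percentage of the counts on S100a8 and S100a9 together in each rat, with 95% Wilson intervals, which cover counting error only, and with the summed counts of the pair under each rat number. Shares run from 26.0% (rat 82) to 45.3% (rat 94), and the rats with the fewest counts, 70 and 69, have the widest intervals.

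The log2 ratio of S100a8 to S100a9 counts, with 0.5 added to each, averaged -0.86 ± 0.48 (SD, n = 4) in group A, -0.50 ± 0.26 (n = 3) in group B, -0.51 ± 0.09 (n = 3) in group C, -0.88 in both rats of group D and -0.80 ± 0.28 (n = 5) in group E. Of 5 comparisons of this ratio, none passed 0.05 in 2-sided exact permutation tests over rats. The 8 injured rats exceeded the 9 uninjured rats by 0.23 (exact permutation p = 0.14, Benjamini-Hochberg adjusted 0.35). Group D was lower than group C by 0.37 in the log2 ratio, and its 2 rats lay below all 3 of group C. The exact permutation p of 0.1 (adjusted 0.35) is the smallest that these numbers of rats allow. Group B minus group A was 0.36 (exact p = 0.31, adjusted 0.52), group E minus group A 0.06 (exact p = 0.80, adjusted 1), and groups C and B had nearly equal means (exact p = 1, adjusted 1), where 3 rats against 3 cannot go below 0.1.

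Among the 9 uninjured rats, none of which entered ±st(SCI), the subunits rose and fell together. On the log2(CPM + 0.1) scale Pearson's r was 0.977 (exact permutation p = 6.1e-05, adjusted 0.00027 over 5 relations) and Spearman's rho 0.95 (exact permutation p = 0.00035, adjusted 0.0012). Without rats 69 and 87, the farthest from the median of S100a8, r was 0.967. Among the 7 uninjured rats numbered 82 to 88, r was 0.982. Both genes are read from the same library and carry the same scaling factor, which ranged from 0.966 to 1.05.

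**Figure D4:**
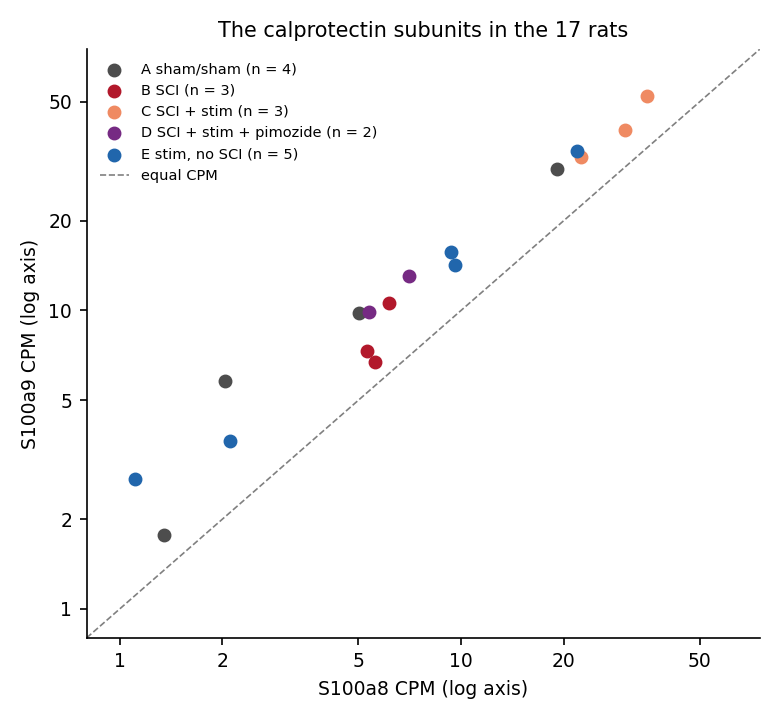
S100a9 against S100a8 in the 17 rats, both in CPM on log axes, coloured by group; the dashed line marks equal CPM, which is not equality of molecules because CPM are not divided by length. The rats of all groups lie along one line above the dashed one, with rats 84 and 87 among the uninjured close to group C.

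Genes of other blood cell lineages were examined beside the pair. Only 99 identifiers could be matched to names, all of them genes that the study lists as changed by stimulation or by pimozide in injured rats, so a list that could be matched is no independent evidence of its direction. Of 18 lists, the calprotectin pair, primary granule (7 of 8 genes), secondary granule (4 of 8), erythroid (14 of 15) and platelet (6 of 8) lists had matches. The others, which cover mature neutrophil receptors, chemoattractants, calprotectin receptors, other S100 genes, monocytes, microglia, lymphocytes, skin, muscle, meninges, neurons and glia, had 0, so the labelled tissue could not be checked against its markers.

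Primary granules are formed at the promyelocyte stage of neutrophil development in the marrow, before calprotectin reaches its peak. The list also holds Epx, eosinophil peroxidase, a granule gene of eosinophils and not of neutrophils, which averaged 2.15, 0.313, 1.6, 0.655 and 1.34 CPM in groups A to E and, unlike the other 6, was lower in group C than in group A. The 4 most abundant genes of the list were Np4, Defa5 and RatNP-3b, alpha-defensins, and Mpo, myeloperoxidase. The defensins belong to a family of near-identical copies, and how reads were split between them is uncertain. Np4 averaged 3.08 ± 4.55 CPM (SD, n = 4) in group A, 0.974 ± 0.432 (n = 3) in group B, 12.7 ± 5.93 (n = 3) in group C, 1.71 ± 1.52 (n = 2) in group D and 2.49 ± 2.06 (n = 5) in group E. Mpo averaged 2.97 ± 2.22 CPM (SD, n = 4), 1.32 ± 0.23 (n = 3), 9.66 ± 4.21 (n = 3), 1.76 ± 1.34 (n = 2) and 1.47 ± 1.16 (n = 5) in the same order. Like the pair, both were highest in group C and variable in group A.

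Secondary granule proteins are made later, in myelocytes, at about the time calprotectin accumulates. Ngp, neutrophilic granule protein, averaged 10 ± 1.65 CPM (SD, n = 3) in group C and 1.65 ± 0.662 (n = 3) in group B. Camp, the cathelicidin antimicrobial peptide, averaged 6.81 ± 1.68 CPM (SD, n = 3) in group C and 1.52 ± 0.484 (n = 3) in group B. Fcnb, a lectin of the ficolin family, averaged 1.44 CPM in group A and 1.45 in group E, 2.99 in group B, 5.78 in group D and 9.42 in group C. Abca13, a membrane transporter, averaged 1.69, 1.24, 0.946, 1.49 and 3.94 CPM in groups A, E, B, D and C. Of the secondary granule genes, Fcnb was the one whose mean was higher in group B than in group A.

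In ±st(SCI) all 7 primary and all 4 secondary granule genes were higher in group C, with a median log2(FC) of 2.85 and 2.10, against 2.35 for the pair and 0.0039 over all genes; the named genes were drawn from this contrast and the next. In ±pim(st/SCI) all 11 were lower, with medians of -2.83 and -1.51, against -2.04 for the pair and -0.016 over all genes. In ±st(0) the medians were -0.75 and -0.20, against 0.30 for the pair and 0.0086 over all genes, and in ±SCI(0) they were -1.47 and -0.81, against -0.39 and -0.019. In these 4 contrasts edgeR's quasi-likelihood test called 0 of the 11, beside 0%, 0.0259%, 0% and 5.30% of all genes, and edgeR's exact test called 35 and 73 genes in all in the first pair of contrasts. The remaining contrasts reuse the group C rats on which the named genes were chosen, and their calls are a description of that choice. In ±st/SCI(0), where 7.13% of all genes were called, it called 1 primary granule gene, Defa5 (log2(FC) 1.83, SE 0.62), and 2 secondary granule genes, Fcnb (2.70, SE 0.47) and Abca13 (1.22, SE 0.36), all higher. In ±SCI(st), where 8.31% of all genes were called, it called 6 of the 7 and 3 of the 4, all higher, among them Mpo (2.74, SE 0.59) and Camp (1.76, SE 0.55).

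The summed level of the primary granule genes ranged from 1.77 to 38.8 CPM in group A, from 3.75 to 6.97 in group B, from 27.4 to 58.0 in group C, from 3.82 to 9.91 in group D and from 2.13 to 17.5 in group E. That of the secondary granule genes ranged from 2.71 to 16.3, 5.39 to 8.86, 21.6 to 35.0, 11.1 to 13.7 and 3.23 to 16.6 CPM in groups A to E. Both sums, like the pair, were highest in group C and did not overlap there with groups B and D. Of all single genes, 3.20% were so separated from group B and 9.23% from group D, and the named genes were drawn from these contrasts. The primary granule sum of group C overlapped that of group A, where rat 84 had 38.8 CPM. The part of the granule genes in the result was not tested. Between the uninjured groups, 0 of the 7 primary granule genes had a higher fitted level in group E than in group A. Of the secondary granule genes, Ngp was slightly higher (log2(FC) 0.18, SE 0.57) and Fcnb equal (0.00, SE 0.51). Both members of the pair were higher, but their sign turned without rat 87. None of these was called, and the difference between the lists was not tested. The 4 relations of the pair with the granule, erythroid and platelet lists over uninjured rats were chosen after the data were seen. Their genes could be named only because the study lists them as changed in injured rats. The p-values of these 4 relations are therefore a description. For single genes that averaged 1 CPM or more, the median r with the mean of the pair over uninjured rats was 0.0324. Over the 9 uninjured rats the summed pair correlated with the primary granule sum at r = 0.947 (exact permutation p = 0.00029, adjusted 0.00049) and rho = 0.933 (exact permutation p = 0.00075, adjusted 0.0012), and at r = 0.889 without rats 69 and 70. With the secondary granule sum r was 0.968 (exact permutation p = 0.00011, adjusted 0.00027), rho was 0.933 (exact permutation p = 0.00075, adjusted 0.0012), and r without rats 69 and 70 was 0.933.

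The pair was not in a fixed proportion to the granule genes. The summed CPM of the pair over that of the primary granule genes was lowest in rat 83 of group A, at 0.934, and highest in rat 76 of group D, at 4.00. Its mean was 1.39 ± 0.372 (SD, n = 4) in group A, 2.56 ± 0.65 (n = 3) in group B, 1.59 ± 0.386 (n = 3) in group C, 3.01 ± 1.40 (n = 2) in group D and 2.20 ± 0.585 (n = 5) in group E. Groups A and E, the uninjured rats without and with stimulation, ran from 0.934 to 1.76 and from 1.78 to 3.20 in it, and so nearly met. The 1.76 is that of rat 70, with 30 counts on the pair and a primary granule sum of 1.77 CPM. This difference was noticed after the values were seen and was not tested. The ratio of the pair to the secondary granule genes ran from 1.15 in rat 70 to 3.37 in rat 87, with means of 1.69, 2.02, 2.38, 1.42 and 2.22 in groups A to E.

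Erythroid and platelet genes were set beside the pair because blood in the tissue carries them too. Over the 9 uninjured rats the pair correlated with the erythroid sum at r = 0.345 (exact permutation p = 0.35, adjusted 0.44) and rho = 0.40 (exact permutation p = 0.29, adjusted 0.31), and with the platelet sum at r = 0.314 (exact permutation p = 0.44, adjusted 0.44) and rho = 0.383 (exact permutation p = 0.31, adjusted 0.31). Without rats 69 and 70, r was 0.0996 and 0.112, and with each rat left out in turn it ran from 0.0819 (without rat 70) to 0.498 (without rat 82) for the erythroid sum and from 0.176 (without rat 70) to 0.53 (without rat 83) for the platelet sum. Rat 82 had the highest erythroid sum of the uninjured rats, 1091 CPM, with 2.04 CPM of S100a8. Rat 87 had the highest S100a8 of them, 21.8 CPM, with an erythroid sum of 610 CPM and a platelet sum of 8.73 CPM. The erythroid sum consists mainly of globin. Of the 12 erythroid genes that averaged 1 CPM or more, the 4 globins Hbb-b1, Hba-a1, Hbb and Hba-a2 had r of 0.138, 0.272, 0.288 and 0.374 with the pair over the uninjured rats, and the other 8 had 0.357 (Alas2), 0.388 (Rhd), 0.421 (Klf1), 0.466 (Kel), 0.551 (Ahsp), 0.608 (Slc4a1), 0.735 (Hemgn) and 0.795 (Epb42). The highest of these values reached that of Mpo, 0.732.

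Across the injured groups the erythroid and platelet lists moved with the pair. The erythroid sum ranged from 296 to 422 CPM in group B, from 617 to 1809 in group C and from 236 to 357 in group D, and the platelet sum from 5.96 to 8.62, from 17.7 to 24.1 and from 7.41 to 8.81 CPM; in uninjured rats the ranges were 214 to 1091 and 5.04 to 21.3 CPM. Their part in the result was not tested. Within group C the order differed, since rat 93 had the highest erythroid sum and the lowest pair, 55.1 CPM, and rat 90 the highest pair, 87.4 CPM, with 821 CPM of erythroid genes. The most abundant erythroid genes were the globins Hba-a1, Hbb, Hba-a2 and Hbb-b1, with means of 370, 318, 276 and 40.5 CPM in group C and 122, 113, 86.8 and 16.5 CPM in group B. Of the platelet list, Itga2b, an integrin subunit of megakaryocytes and platelets, averaged 9.49 CPM in group C and 4.36 in group B, Mmrn1 3.60 and 0.752, Nfe2 3.01 and 0.816, and Tubb1 2.51 and 0.903. All 14 erythroid and all 6 platelet genes were higher in group C than in group B, with a median log2(FC) of 2.00 and 2.05, against 0.0039 over all genes. As for all genes in this contrast (0%), edgeR's quasi-likelihood test called 0 of them, where edgeR's exact test called 35 genes in all. The contrasts of group C with uninjured rats reuse the rats on which these genes were chosen, so that the calls there restate that choice. In ±st/SCI(0), edgeR's quasi-likelihood test called Klf1 (log2(FC) 1.51, SE 0.42) and Rhd (1.83, SE 0.58) of the erythroid and Ppbp (2.14, SE 0.69) and Gp1ba (2.24, SE 0.59) of the platelet list, all higher, beside 7.13% of all genes. In ±SCI(st) it called 12 of 14 and 6 of 6, beside 8.31%. Gp1ba averaged 0.92 CPM in group C and at most 0.182 in any other group, and so passed the filter on low counts through group C. Ppbp, Rhag and Elane, the last of the primary granule list, also leaned on group C to pass, which limits their calls. Their highest values in groups B, D and E were 0.642, 0.642 and 0.385 CPM. In group A the highest were 0.95, 2.07 and 2.27 CPM, against means of 0.494, 0.765 and 0.654.

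**Figure D5:**
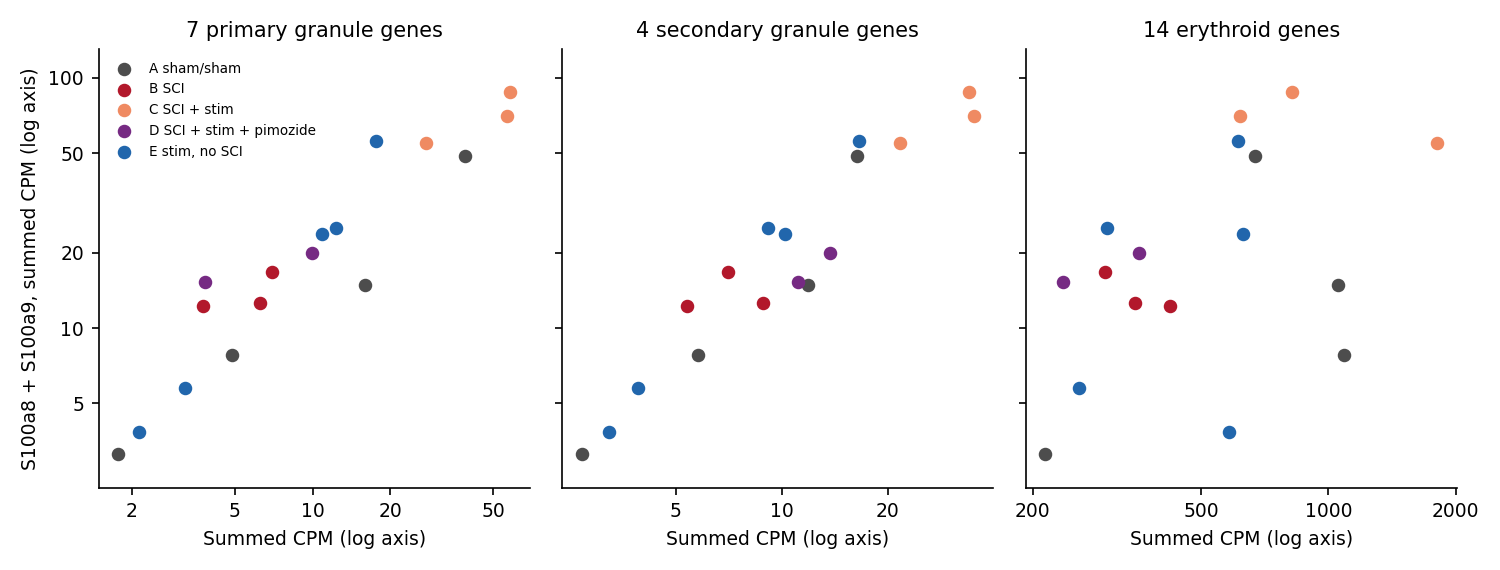
Summed CPM of S100a8 and S100a9 in each rat against the summed CPM of 7 primary granule genes (left), 4 secondary granule genes (middle) and 14 erythroid genes (right), on log axes, coloured by group. Among uninjured rats the points rise together for both granule lists (r = 0.947 and 0.968) and scatter for the erythroid list (r = 0.345), and among injured rats group C lies above groups B and D in all 3 panels.

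Among the 14513 genes that averaged 1 CPM or more, the 10 whose log2(CPM + 0.1) followed the mean of the pair most closely over the 17 rats were searched for without regard to names. They were Np4 (r = 0.947), Robo-1 (0.923), Ngp (0.921), RatNP-3b (0.911), LOC103690079 (0.910), Defa5 (0.907), Camp (0.899), Nfe2 (0.849), ENSRNOG00000009907 without a name (0.841) and Mpo (0.837). The median r over all these genes was -0.0229 and the 99th percentile 0.643. The correlations are descriptive, because the 17 points share libraries and the high values of group C, and 9 of the 10 genes are on the study's lists of genes changed by stimulation or pimozide in injured rats.

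Over the 9 uninjured rats alone, Np4 was the closest gene again, with r = 0.979, and LOC103690079, ENSRNOG00000009907, Robo-1 and Ngp ranked 6, 7, 8 and 9 with 0.95, 0.949, 0.938 and 0.938. Defa5 and Camp followed at 11 and 12, with r of 0.930 and 0.925. RatNP-3b ranked 45 (r = 0.878), Nfe2, a transcription factor of megakaryocytes and erythroid cells, 295 (0.758) and Mpo 386 (0.732). Of the listed genes that averaged 1 CPM or more, those of the primary granule list ran from 0.732 (Mpo) to 0.979 (Np4) in uninjured rats, those of the secondary granule list from 0.528 (Abca13) to 0.938 (Ngp), those of the platelet list from 0.0372 (Tubb1) to 0.758 (Nfe2) and those of the erythroid list from 0.138 (Hbb-b1) to 0.795 (Epb42), so that the 4 ranges overlap. Robo-1 had its highest mean in group C, 10.2 ± 4.52 CPM (SD, n = 3), and means of 2.34, 2.89, 4.09 and 2.4 CPM in groups A, B, D and E. The unnamed ENSRNOG00000009907 also had higher means in groups B and D, 6.78 ± 2.56 (SD, n = 3) and 7.67 ± 3.29 (n = 2) CPM, than in groups A and E, 2.85 ± 2.22 (n = 4) and 3.10 ± 2.48 (n = 5) CPM.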

How the data were processed

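RNA of 17 rat spinal cords (combined cervical, thoracic and lumbar blocks, rRNA-depleted stranded libraries, single-end reads) was measured by the authors, who trimmed adapters with Trim Galore 0.4.1, aligned reads with STAR 2.5.0a and counted them per Ensembl gene. The deposited values are raw counts for 32494 genes, not normalized. The processing notes name rn6 and Rnor_6.0 and the paper's methods an older build, and the strand setting of the counting is not given in the sources used here. Identifiers were paired with names through a supplementary table of the paper, for 99 genes; S100a8 and S100a9 are among them. The RefSeq tables of GRCr8 gave promoter windows and gene neighbours only.

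Groups were taken from the letter in each sample title. Counts were fitted in R 4.3.3 with edgeR 4.0.16 (TMM, filterByExpr leaving 15460 genes, glmQLFit with 1 coefficient per group over all 17 rats, glmQLFTest), and genes were called at FDR under 0.05 with absolute log2(FC) above 1. The study's own choice, edgeR's exact test, was an alternative, as were DESeq2 1.42.0, total-count and RLE scaling, other filters, fits of 2 groups, a term for the runs of rat numbers and each rat left out. The SE is the size of the log2(FC) divided by the square root of F. Ratios and correlations used exact permutation tests (Python 3.11.15, numpy 2.4.6, pandas 2.3.3, scipy 1.17.1), and figures matplotlib 3.10.9. The edgeR script was tested on simulated data. Members and gene lists were chosen with earlier results of these data known. Within a list up to 4 genes of the highest mean, and all called ones where at most 5 were called, are named, with the 10 genes most like the pair. With 9852873 to 14137717 counts per rat, 1 CPM rests on about 10 counts. Samples are separate rats.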

Additional observations from a re-analysis of the deposited data

How the results depend on the processing

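Of the recomputed values, 399 stayed on their side of the threshold or moved by less than the spread between rats, and the others follow with the sign changes; where no cause is given, it was not tested. With edgeR's exact test on 2 groups, the calls rose from 0 to 35 for ±st(SCI), from 4 to 73 for ±pim(st/SCI) and from 0 to 24 for ±st(0). Fits of 2 groups alone called 3 in ±st(SCI) and 9 in ±pim(st/SCI), DESeq2 32 in ±pim(st/SCI) and 16 in ±st(0), and the count in ±pim(st/SCI) was 17 without a filter and 1 with a term for the runs of rat numbers. That term moved the log2(FC) of S100a8 and S100a9 to 0.74 and 0.94 in D/C, and to 2.47 and 2.45 in D/A, turning all 4 signs. Signs also turned without rat 84 in B/A (1.01 and 0.49) and D/A (1.16 and 0.98), without rat 76 in D/A (0.05 and 0.15), and with total-count scaling for S100a9 in D/A (0.05). With 1 rat left out in turn, calls ranged from 0 to 36 in ±pim(st/SCI) (36 without rat 75, 0 without rat 76), from 0 to 49 in ±st(0) (49 without rat 82), from 664 to 1415 in C/A, and from 812 to 1554 in C/E, both lowest without rat 89. The log2(FC) in ±st(0) ranged from -0.31 to 1.63 for S100a8 (negative without rat 87) and from -0.38 to 1.26 for S100a9 (negative, at -0.38 and -0.10, without rats 87 and 70). The difference in log2 ratio ranged from -0.15 (without rat 82) to 0.23 for E minus A and from -0.14 to 0.11 for C minus B, where 4 of the 6 changed sign around 0 (0.11, 0.02, 0.03 and 0.01). No correlation over uninjured rats changed its side of 0.05, where the restriction to rats 82 to 95 and the 4 relations with lists were added after the data were seen. No paired analysis was possible because the groups share no rat number. Rats 70 and 69 had 30 and 45 counts on the pair, the lowest, which limits their share of S100a8.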
